A study of Arabidopsis thaliana with 26 samples.

Results

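Cytochrome P450 genes of the Arabidopsis root were followed through the first minutes after nitrate was supplied. The genes were taken by name: each is the sole gene paired with a probe set (the group of short probes that reads 1 transcript) and has a symbol or synonym made of CYP, a family number, a subfamily letter and a gene number. The rule found 22 genes among the 13513 probe sets with 1 named gene, each with 1 probe set, so no choice between probe sets arose. By the same rule, the RefSeq gene table of assembly TAIR10.1 holds 240 genes. The P450 genes outside the 22 were not analysed here, so the counts below do not stand for all P450 genes of the root. The study's list of genes regulated by nitrate holds some of those others, among them CYP707A3, CYP79B2, CYP90D1 and CYP98A3. Of the 22, 18 belong to subfamily CYP71B, which counts 36 genes in that table, and the others are CYP51G2, CYP78A9, CYP79A2 and CYP84A4, so 5 families were seen.

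The samples were roots of Arabidopsis plants, ecotype Columbia by the study's methods, grown in hydroponics for 14 days with ammonium as nitrogen source and held without nitrogen before the treatment. Roots were collected untreated at time 0, then every 3 min up to 15 min and once more at 20 min after transfer to medium with KNO3 or, as control, KCl. The 13 groups held 2 arrays each, 26 in all, called biological replicates by the study. RNA came from the whole root, so fewer cells that use a gene and less RNA per cell cannot be told apart.

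P450 enzymes are heme proteins, mostly anchored in the endoplasmic reticulum, that insert an oxygen atom into small molecules with electrons passed on by NADPH-P450 reductase. Plants use them to build and break down hormones, sterols, lignin precursors and defence compounds. In Brassicaceae several of them serve the indole and glucosinolate compounds made against microbes and herbivores. The CYP71 family is among the largest of the plant P450 families and acts mainly on such specialised metabolites, and many of its CYP71B members stand side by side on the chromosome.

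Of the 22 P450 genes, 1 differed between KNO3 and KCl in any of the comparisons: CYP71B6 was lower with KNO3 at 3 min, a log2 difference of -0.76, and at no later time. At 3 min 2.28% of all probe sets were called, and the call of CYP71B6 was lost when any of 3 arrays was left out and in the early arrays alone. Averaged over 9, 12, 15 and 20 min, the 8 genes with a clear signal differed between the salts by -0.14 to 0.25 on the log2 scale. At single times of that span their differences ran from -0.67 (CYP84A4 at 15 min) to 0.70 (CYP71B28 at 9 min), and none was called. The other 14 genes were dim. Among them CYP51G2, CYP78A9 and CYP71B38 had replicate SDs of 0.35, 0.42 and 0.48 on the log2 scale. The rest of the 14 varied so much between replicate arrays that changes of several fold at a single time could not be told from that spread. A call here means an adjusted p under 0.05 from limma, fitted to log2 signals of all 26 arrays and adjusted over all 22746 probe sets of a comparison.

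Signal strength set what could be seen. A gene was counted as dim where its mean log2 signal over the 26 arrays lay at or below the 40th percentile of all probe sets. By that measure 8 genes were not dim, CYP71B6, CYP71B23, CYP71B37, CYP71B29, CYP71B26, CYP71B34, CYP71B28 and CYP84A4, and 14 were dim. The 25th percentile of signal lay between 48.5 and 64.1 on the 18 arrays at time 0 and at 9 to 20 min, and between 76.3 and 110.8 on the 8 arrays at 3 and 6 min. On all 26 arrays, 7 genes lay below that percentile: CYP71B25, CYP71B16, CYP71B35, CYP71B31, CYP71B21, CYP71B5 and CYP79A2. CYP71B36 and CYP71B27 were below it on 25 arrays, CYP71B24 on 23, CYP71B22 on 17, CYP71B38 on 11, CYP78A9 on 2 and CYP71B28 on 1. The median SD between replicate arrays was 0.22 on the log2 scale over the 8 brighter genes and 0.94 over the 14 dim ones, against 0.20 and 0.73 over all brighter and all dim probe sets.

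**Figure D1:**
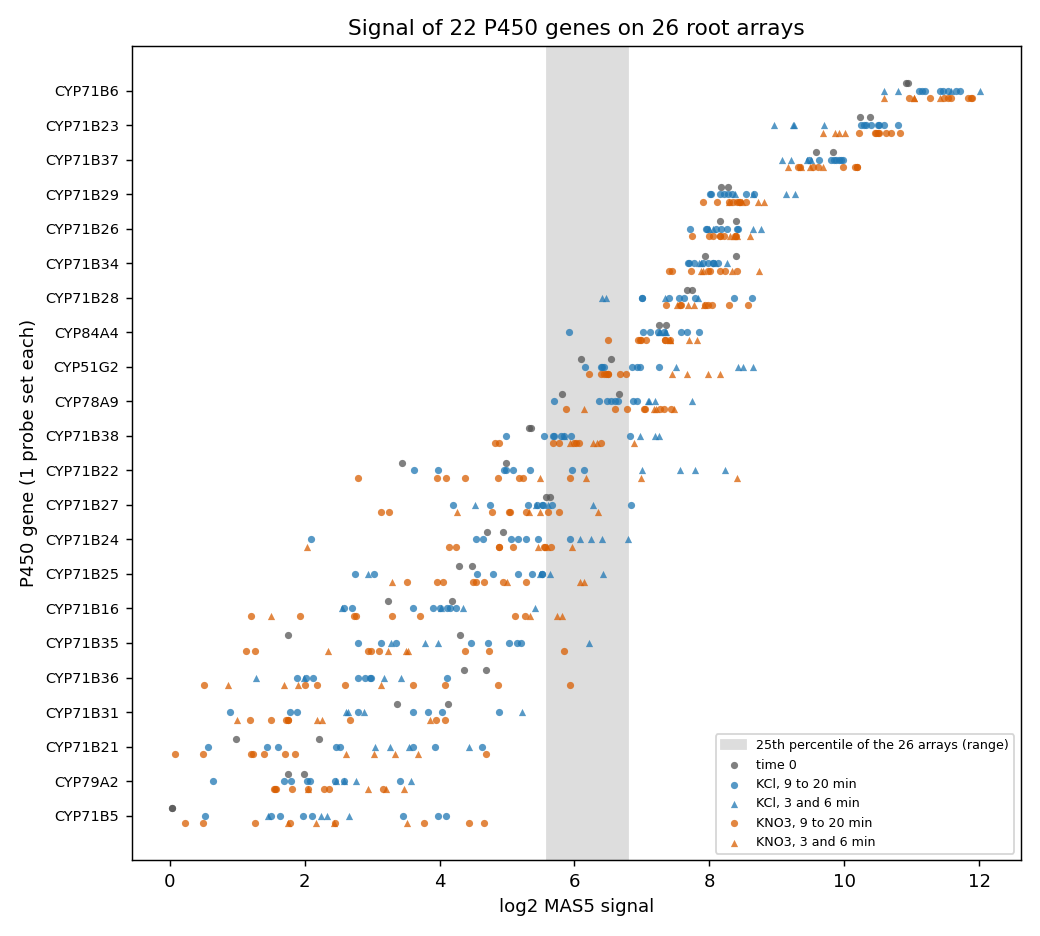
Each point is the log2 signal of 1 P450 gene on 1 array, with time 0 in grey, KCl in blue and KNO3 in orange, and triangles for the arrays at 3 and 6 min; the grey band spans the 25th percentiles of the 26 arrays. The 8 genes at the top lie within a narrow range and mostly to the right of the band, whereas 7 genes at the bottom lie below their array's 25th percentile on all 26 arrays and spread widely.

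The arrays at 3 and 6 min stood apart from the other 18. Spike-in control transcripts, in amounts that the methods do not state, had mean log2 signals of at least 12.55 on those 8 arrays and of at most 11.25 on the 18. Replicate arrays correlated across probe sets at a median r of 0.93 and 0.96. These 2 times and this array set cannot be told apart, so the salts were compared at each time and levels at 3 and 6 min are not read against later ones. Of 18 root markers 3 were named as the sole gene of a probe set, all well above the 25th percentile on every array. The root hair expansin EXPA7 read 516 to 1324, EXPA18 462 to 1385 and the root beta-glucosidase BGLU23 9700.5 to 36269. Of 14 markers of green tissue 2 were named as the sole gene of a probe set, LHCB4.1 and RCA. Among the other 25 arrays both were highest on the second KNO3 array at 12 min, at 523 and 726. Both peaked on the first KNO3 array at 15 min, LHCB4.1 at 1409 and RCA at 1582. Their part in the P450 values was not tested, and the count of P450 calls at 15 min was 0 with and without that array.

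CYP71B6 encodes an enzyme that acts on indole acetonitrile, an intermediate of indole defence metabolism. At 3 min its signal was 3053 and 4135 on the KCl arrays and 2101 and 2096 on the KNO3 arrays. The groups did not overlap. The log2 difference was -0.76 ± 0.20 (SE, n = 2 per salt; 95% interval -1.17 to -0.35), with an adjusted p of 0.044 from limma. This was the only call among the 22 genes at 3 min, where 2.28% of all probe sets were called in either direction and 0.888% as lower with KNO3. The call rested on each of 3 arrays: without the second KCl array the difference was -0.54 and its adjusted p from limma 0.269, without the first KNO3 array the adjusted p was 0.110 and without the second it was 0.166. With 1 array left in a group, that array is assumed to vary like the other groups. The call was also lost when the 8 arrays at 3 and 6 min were fitted alone, with an adjusted p of 0.423 from limma.

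At later times CYP71B6 was not called. At 6 min it measured 1547 and 1777 with KCl against 1533 and 2726 with KNO3, where the groups overlapped. At 9 min it measured 3236 and 2829 with KCl against 3809.8 and 3669 with KNO3. At 12 min it measured 2266 and 2347 against 2844 and 2971. Both KNO3 arrays thus lay above both KCl arrays at 9 and 12 min, with log2 differences of 0.31 (95% interval -0.10 to 0.71) and 0.33 (-0.07 to 0.74) that did not pass the test. The signals overlapped again at 15 min, 2978 and 3364 against 3757 and 3080.1, and at 20 min, 2743 and 2209.6 against 1989 and 2461. The salt difference at 12 min exceeded that at 3 min by 1.09 ± 0.28 (SE) on the log2 scale, with an adjusted p of 0.072 from limma that misses the threshold.

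**Figure D2:**
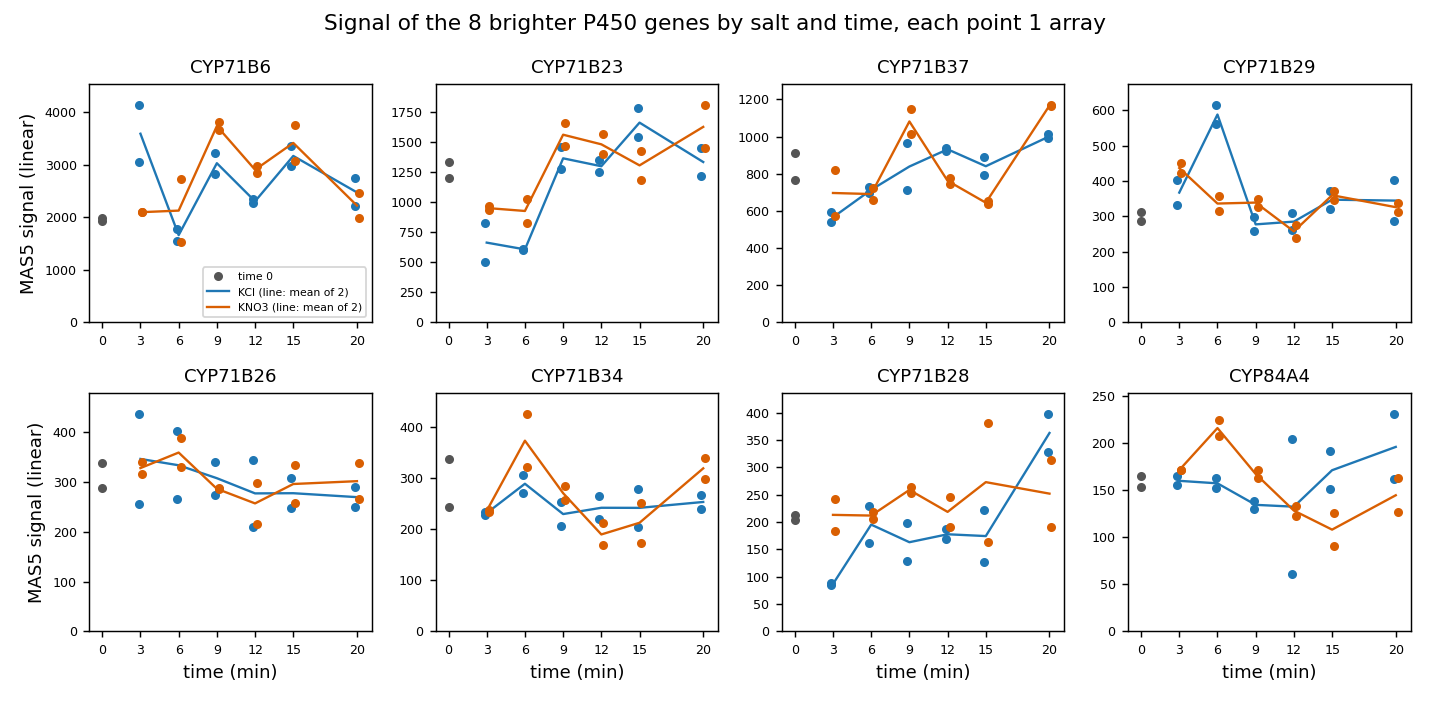
Linear MAS5 signal (arbitrary units, axes from 0) against time in min for the 8 brighter P450 genes; each point is 1 array and lines join the means of 2 arrays, KCl in blue and KNO3 in orange, with time 0 in grey. CYP71B6 shows KCl above KNO3 at 3 min, and in CYP71B29 the 2 KCl arrays at 6 min, 562 and 614, stand above the 2 KNO3 arrays; from 9 min on none of the 8 genes was called at a single time.

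Beside CYP71B6, the lowest adjusted p-values came from CYP71B28 and CYP71B29, which are direct neighbours on chromosome 1 and were not called. CYP71B28 measured 88.8 and 84.6 with KCl at 3 min and 243 and 183 with KNO3, without overlap. The log2 difference was 1.28 ± 0.35 (SE, n = 2 per salt; 95% interval 0.55 to 2.01), with an adjusted p of 0.058 from limma. At 6 min, CYP71B28 overlapped between the salts, 228 and 162 with KCl against 205 and 218 with KNO3. It lay higher with KNO3 without overlap at 9 min (198 and 128 against 253 and 264) and lower without overlap at 20 min (329 and 397 against 190.1 and 314). Neither difference passed the test, 0.70 at 9 min with an adjusted p of 0.735 and -0.56 at 20 min with 0.978 from limma.

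CYP71B29 showed its separation at 6 min. The KCl arrays read 562 and 614 and the KNO3 arrays 315 and 358, without overlap. The log2 difference was -0.81 ± 0.18 (SE, n = 2 per salt; 95% interval -1.19 to -0.43), with an adjusted p of 0.055 from limma. At 3 min the order was the opposite one, 332 and 402 with KCl against 450.4 and 423 with KNO3, a log2 difference of 0.26. The change of the salt difference between these times, -1.06 ± 0.26 (SE), had an adjusted p of 0.066 from limma. At 6 min limma called 0 of the 22 genes, 2 of which had an unadjusted p under 0.05, where 0.413% of all probe sets were called. CYP71B29 passed the threshold at 6 min under 3 other treatments of the values, given with the processing choices in the closing section. It also did so in a sequential linear model built after the study's methods. That result is not separate support, since the model's first step selected CYP71B29 on the same arrays. Its adjustment covered only the 2162 probe sets that passed that step. The study itself does not list CYP71B29 (AT1G13100) among its regulated genes. CYP71B28 passed the threshold at 3 min under 2 of those treatments.

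CYP71B23 and CYP71B37 belong to the same row of genes on chromosome 3. CYP71B23 read 829 and 499 with KCl and 934 and 970.4 with KNO3 at 3 min, and 611 and 604 against 1029.8 and 825 at 6 min. The KNO3 arrays were higher without overlap at both times, by 0.57 ± 0.18 and 0.60 ± 0.18 (SE) on the log2 scale, with adjusted p-values of 0.115 and 0.182 from limma. Without the first KCl array at 3 min the difference was 0.93 and its adjusted p 0.002 from limma, with 1 KCl array left that is assumed to vary like the other groups, and in that setting the calls over all probe sets rose from 518 to 1578. At 9 min the signals were 1456 and 1275 against 1656 and 1467, at 12 min 1252 and 1347 against 1399 and 1565. At 15 min the order turned, 1781 and 1543 against 1425 and 1188, and at 20 min 1449 and 1220.3 stood against 1447 and 1806. All of these differences from 9 min on lay between -0.35 and 0.28 on the log2 scale and none was called.

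CYP71B37 moved within a factor of 2.17 over all 26 arrays and had the second smallest replicate SD of the 22, 0.16 on the log2 scale. It was higher with KNO3 without overlap at 9 min, 966 and 712 against 1149 and 1013, and at 20 min, 989.5 and 1013 against 1168 and 1165. It was lower without overlap at 12 min, 924 and 939 against 779.5 and 744, and at 15 min, 890.0 and 790.5 against 637 and 651. In time order the log2 differences were 0.38, -0.29, -0.38 and 0.22, each with an SE of 0.16, and the smallest adjusted p from limma was 0.355. Groups of 2 arrays were thus fully separate with one sign at 9 min and with the other at 12 min.

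CYP71B26 and CYP71B34, also on chromosome 3, and CYP84A4, on chromosome 5, completed the brighter set. CYP71B26 overlapped between the salts at all 6 times, with log2 differences of -0.09 to 0.16 and signals of 209 to 435 over the 26 arrays. CYP71B34 ranged from 169 to 425 and its differences from -0.35 at 12 min to 0.36 at 6 min. CYP84A4, a relative of ferulate 5-hydroxylase that takes part in making arabidopyrones from phenylpropanoids, ranged from 60.6 to 230.2. Its differences ran from 0.46 at 6 min (152 and 162 against 224 and 207) to -0.67 at 15 min (151 and 191 against 125 and 90.6), and the smallest adjusted p among its 6 times was 0.567 from limma.

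At 9 min, 7 of the 8 brighter genes had both KNO3 arrays above both KCl arrays, the exception being CYP71B26. The same held for 19.3% of all probe sets and for 24.0% of those that were not dim. The median log2 difference of the 8 genes was 0.30, against -0.02 over all probe sets that were not dim. These genes were read on the same arrays and are not independent. None of the differences passed the test, and limma called 0 of the 22 genes at 9 min, 1 of which had an unadjusted p under 0.05, where 0.396% of all probe sets were called. At 3 min 4 of the 8 genes were higher and 1 lower without overlap, where 35% of all probe sets did not overlap in either direction. At 6 min 3 were higher and 1 lower, against 35.4% of all probe sets. At 12 min 3 of the 8 genes were higher and 2 lower without overlap, where 40.9% of all probe sets did not overlap in either direction. At 15 min 0 were higher and 3 lower, against 40.4% of all probe sets, and at 20 min 2 were higher and 1 lower, against 44.6%. Among the 14 dim genes at 9 min, 1 was higher and 5 were lower without overlap, and 8 overlapped, where 30.2% of all probe sets were lower without overlap.

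At 12, 15 and 20 min limma called 0 of 22 genes, with 3, 2 and 2 at an unadjusted p under 0.05, where 0.69%, 1.2% and 0.743% of all probe sets were called. Over the 6 times and 22 genes, 132 tests gave 1 call, and 14 had an unadjusted p under 0.05 in 11 genes, which is 10.6% against 10.2% of all tests over all probe sets. Groups of 2 arrays did not overlap in 64 of the 132 tests, or 48.5%, against 41.0% over all probe sets, brighter and dim together. That was 27 of 48 tests in the brighter genes and 37 of 84 in the dim ones. The share with an unadjusted p under 0.05 is near that of the arrays as a whole. The share without overlap is somewhat above it, a gap that was not tested. Over the 15 pairs of times, a comparison chosen after values had been seen, 0 of the 330 differences between salt effects were called in these genes, where 0.375% of such tests were called over all probe sets. An unadjusted p under 0.05 was found in 49 of the 330, or 14.8%, against 8.93% over all probe sets. These 330 tests reuse the same 6 salt effects of each gene and are not independent.

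**Figure D3:**
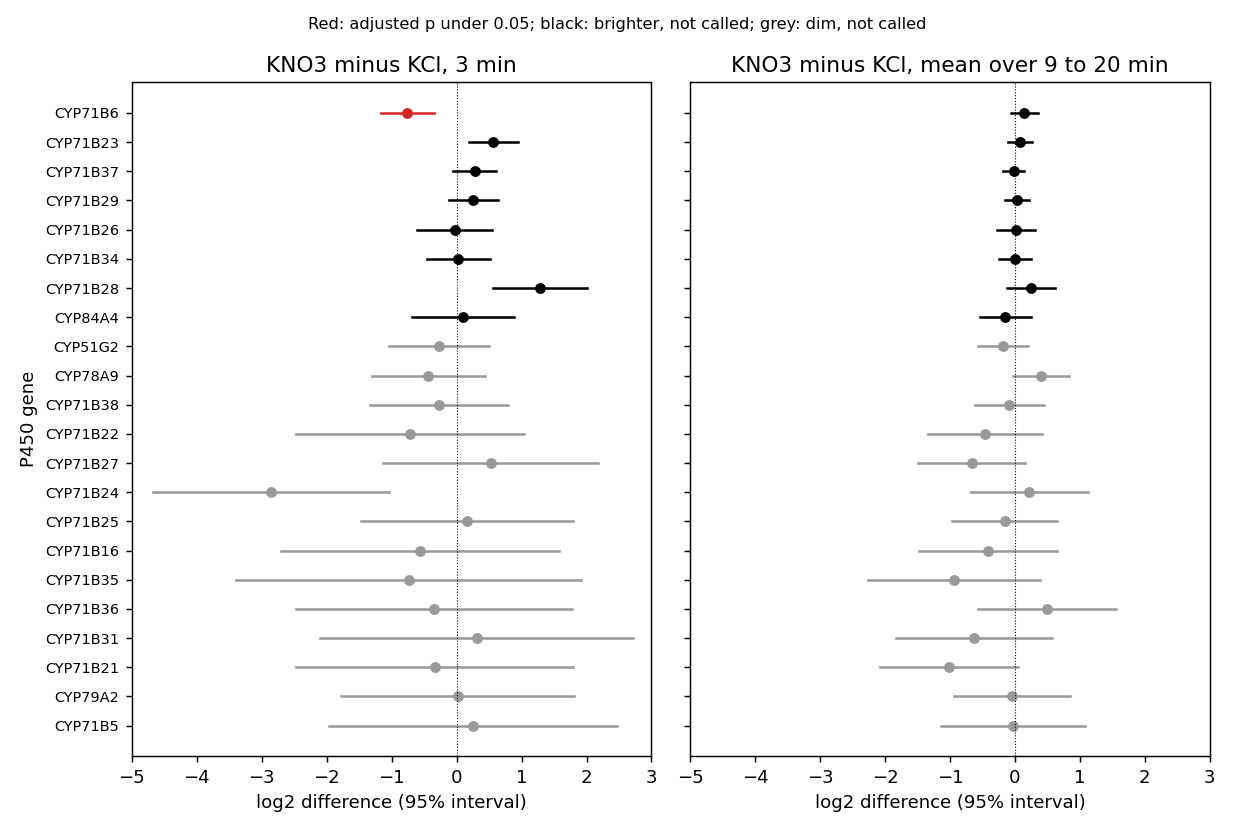
Log2 difference KNO3 minus KCl with its 95% interval for each of the 22 P450 genes, at 3 min (left) and as the mean over 9, 12, 15 and 20 min (right); red marks the 1 call, black the other brighter genes and grey the dim ones. CYP71B6 at 3 min is at -0.76, and on the right the intervals of all 8 brighter genes lie between -0.53 and 0.61.

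The mean salt effect over 9 to 20 min used 8 arrays of each salt and gave the narrowest intervals. No gene of the 22 was called, where 1.97% of all probe sets were, and the salts overlapped in 22 of 22 genes, where 0.462% of all probe sets did not overlap. The smallest unadjusted p was 0.061, for the dim CYP71B21. CYP71B6 ranged from 2209.6 to 3364 (median 2786) with KCl and from 1989 to 3809.8 (median 3026) with KNO3, a log2 difference of 0.15 with a 95% interval of -0.06 to 0.35. CYP71B23 differed by 0.08 (-0.11 to 0.27), CYP71B37 by -0.02 (-0.18 to 0.15), CYP71B29 by 0.04 (-0.15 to 0.23) and CYP71B34 by 0.01 (-0.24 to 0.25). The widest interval among the brighter genes was that of CYP84A4, -0.53 to 0.24 around -0.14, and the highest bound that of CYP71B28, 0.61. A sustained doubling or halving therefore lay outside the 95% interval of each of the 8 genes. Among the 14 dim genes the intervals reached from -2.26 to 1.56, and 5 of the 14 lay within 1 log2 unit of 0. The median over the 22 genes was -0.03, against -0.02 over all probe sets.

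The difference between the salt effect at 20 min and that at 9 min was called by limma for 0 of 22 genes, 3 of which had an unadjusted p under 0.05, and for 0.554% of all probe sets. Among the brighter genes CYP71B28 had the largest value, -1.26 ± 0.50 (SE) on the log2 scale, with an adjusted p of 0.469 from limma. CYP78A9, a dim gene known for promoting fruit and seed growth, gave 1.38 ± 0.59 (SE) with an adjusted p of 0.555. Its signal at 20 min was 51.9 and 122 with KCl and 161 and 172 with KNO3, and at 9 min 89.2 and 97.4 against 96.7 and 58.4. The KNO3 arrays were thus above the KCl arrays at 20 min and overlapped with them at 9 min, and the 20 min difference of 1.07 had an adjusted p of 0.577 from limma.

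Transfer to KCl medium was set against time 0 as the mean of the 8 KCl arrays at 9 to 20 min, all of the array set that holds the time 0 arrays. Of the 22 genes limma called 0, with 3 at an unadjusted p under 0.05, where 0.585% of all probe sets were called. The KCl arrays did not overlap with the 2 time 0 arrays in 3 of the 22 genes, or in 6.15% of all probe sets. CYP71B6 was 1 of them: all 8 KCl arrays, 2209.6 to 3364, lay above 1930.1 and 1979, a log2 difference of 0.47 ± 0.16 (SE; 95% interval 0.15 to 0.80) with an adjusted p of 0.279 from limma. In the 18 arrays of that set fitted alone the same difference had an adjusted p of 0.039 from limma. The KNO3 arrays at 9 to 20 min, 1989 to 3809.8, lay on the same side. The others were the dim CYP71B36, at 25.8 and 20.5 at time 0 against 3.70 to 17.2, and CYP71B5, at 1.03 on both time 0 arrays against 1.43 to 17.1. For the 8 brighter genes the differences ran from -0.25 in CYP71B34 to 0.47 in CYP71B6.

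Several of the dim genes had large fitted differences with wide intervals. CYP71B24 read 111 and 85.0 with KCl at 3 min and 4.11 and 43.8 with KNO3, a log2 difference of -2.85 (95% interval -4.67 to -1.04) with an adjusted p of 0.092 from limma. Without the first KNO3 array, at 4.11, the gene was not called. Without the other one it was called, with a difference of -4.56 and an adjusted p of 0.011 from limma, but the KNO3 group was then the 1 array at 4.11, below its array's 25th percentile, and its spread was taken from the other groups. At 15 min CYP71B24 went the other way, 4.29 and 23.3 with KCl against 47.3 and 29.5 with KNO3. CYP71B5 at 20 min gave -3.41, from signals of up to 17.1 with KCl against 1.41 and 1.17 with KNO3 and with an adjusted p of 0.268, all below the 25th percentile of their arrays. CYP71B36 and CYP71B16 gave the largest rises at 12 min, 2.84 and 2.55, from 7.87 and 4.38 against 29.1 and 61.0 and from 6.52 and 6.02 against 34.9 and 38.3, neither called. CYP71B22 had a difference below 0 at all 6 times, -0.37 to -1.04, with overlap at 4 of them. CYP79A2, which turns phenylalanine into the aldoxime for benzyl glucosinolate, stayed between 1.57 and 11.9 on all arrays, below the 25th percentile, and its 6 differences ranged from -0.50 to 0.47.

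By position, 15 of the 22 genes lie on chromosome 3. In the order of the TAIR10.1 gene table, 25 genes run from CYP71B16 to CYP71B37, 18 of them CYP71B genes, and 11 of these are among the 22. CYP71B21, CYP71B22 and CYP71B23 follow each other with no gene between them, and so do CYP71B34, CYP71B35, CYP71B36 and CYP71B37. In all, 4 genes of the row were not dim, CYP71B23, CYP71B26, CYP71B34 and CYP71B37, and 7 were, which does not rank the genes, since probe sets bind their transcripts unequally. Over the 6 times the KNO3 arrays lay above the KCl arrays without overlap in 14 of 66 tests of the row, or 21.2%, against 17.9% over all probe sets, and below them in 21, or 31.8%, against 23.1%. Those shares cover brighter and dim probe sets together, whereas 7 genes of the row are dim. Over all dim probe sets the median difference was below 0 at 3, 6, 9 and 20 min and above 0 at 12 and 15 min. None of the 11 was called at any time. A shorter row on chromosome 1, 6 genes from CYP71B27 to CYP71B7, holds 3 of the 22. These are the dim CYP71B27, given as a transcribed pseudogene, and the brighter CYP71B28 and CYP71B29.

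**Figure D4:**
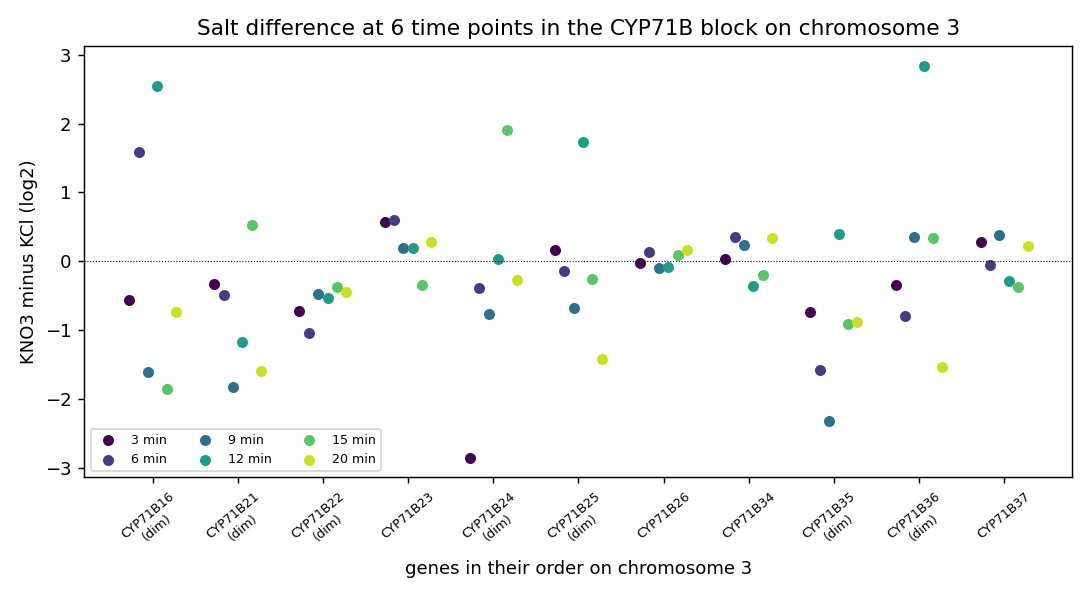
Log2 difference KNO3 minus KCl at each of the 6 times, by colour, for the 11 analysed CYP71B genes of the chromosome 3 row in their order along the chromosome (equal spacing, not to distance). The genes counted as dim carry that word under their name. The 4 genes that are not dim stay within -0.38 and 0.60, while the points of the dim genes scatter from -2.85 to 2.84.

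Signals of the brighter genes were also compared with each other. Over the 18 arrays at time 0 and 9 to 20 min, the highest correlation of log2 signals among the 28 pairs was that of CYP71B37 and CYP71B34, with a Pearson r of 0.63 and a Spearman rho of 0.66, which fell to an r of 0.24 over all 26 arrays. These points share arrays and their scaling, and the correlation is given as a description.

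Across the array sets, 2 genes separated completely. CYP71B23 was lower on all 8 arrays at 3 and 6 min, 499 to 1029.8 (median 827), than on the other 18, 1188 to 1806 (median 1436), as were 4.69% of all probe sets. CYP51G2, a relative of the sterol 14-demethylase that the gene table gives as a transcribed pseudogene, was higher on all 8, 174 to 400.1 (median 269.6) against 68.3 to 153 (median 89.4), as were 9.76% of all probe sets. CYP71B22 showed the largest mean shift, 2.48 on the log2 scale, with some overlap. Since the early times and the array set coincide, an early level and a difference between array sets cannot be told apart. Within the early set CYP51G2 did not separate by salt at 3 min, 400.1 and 182 with KCl against 286 and 174 with KNO3, and at 6 min read 344 and 363 against 204 and 253, a log2 difference of -0.64 with an adjusted p of 0.609 from limma.

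By known role, few pathways could be followed with the 22 genes. The annotation named no gene for 8730 of the 22746 probe sets. Of 14 listed P450 genes of glucosinolate, camalexin and indole metabolism 1 was among the 22, CYP79A2. Of 7 for phenylpropanoids it was 1, CYP84A4, and of 6 for organ growth 1, CYP78A9. Of 7 listed names for sterols 1 was matched, through a synonym, to CYP51G2, a transcribed pseudogene. Each of these genes was called in 0 comparisons. CYP71B6, which was called at 3 min, is on none of these lists, although its enzyme acts on an indole intermediate. No member of the lists for brassinosteroids, gibberellin, abscisic acid, cytokinin, jasmonate, strigolactone, fatty acids and suberin, root triterpenes, carotenoids or coumarins and homoterpenes was among the 22. None of the 8 listed electron donors of P450 enzymes was named as the sole gene of a probe set. These pathways were not analysed here. The arrays do read P450 genes outside the 22, since the study lists CYP79B2, CYP98A3 and CYP90D1 as regulated.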

How the data were processed

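RNA of 26 root samples was hybridised to Affymetrix ATH1 arrays. The deposited values are linear signal intensities per probe set, which the authors computed with MAS5, as the submitters' processing notes also name. The methods state scaling to a target median, whereas the trimmed mean of each array, leaving out 2% at each end, was 500.0 in the deposited intensities. The methods name MAS v5.0 at default values and hybridisation of biotin-labelled cRNA. No array carries a depth, so the number of arrays limits the precision.

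Control probe sets (64) were left out and log2 signals of 22746 probe sets fitted in R 4.3.3 with limma 3.58.1 (intensity trend, 13 groups, 13 residual degrees of freedom), with Benjamini-Hochberg adjustment within each comparison and a threshold of 0.05. The fit was tested on simulated data. Gene names came from the platform annotation (13513 probe sets with 1 gene, 503 with several, 8730 with none), and gene order from RefSeq (TAIR10.1). CYP71B30P and CYP718, whose names lack the full form, the cyclophilins CYP71 and CYP59, and 2 probe sets shared by several genes were left out.

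Genes were named if called, on a role list, among the 5 brightest or dimmest, or among the 3 brighter ones with the largest change in a comparison. Members and lists were chosen with earlier results of these data known. Genes that illustrate overlap, position or array sets were added after their values were seen. Alternatives were no intensity trend, a filter at the 40th percentile, quantile normalization, an offset of 32 before the logarithm and the replicate number as a block. Others were fits of the array sets or of single times, and leaving out each array. A sequential linear model was built after the study's methods, with KNO3 minus KCl tested at each time in its second step.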

Additional observations from a re-analysis of the deposited data

How the results depend on the processing

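Counts of called P450 genes were recomputed in 124 settings over 9 comparisons, of which 109 kept the count. At 3 min the count was 1 in the reported fit. It was 0 without the intensity trend, in the 8 arrays at 3 and 6 min alone and in the time point alone. It was 2 with the filter at the 40th percentile and with quantile normalization (CYP71B6 and CYP71B28), and 2 with an offset of 32 (CYP71B6 and CYP71B24). The sequential linear model also gave 0, but only CYP71B29 among the P450 genes passed its first step. The second step thus did not test CYP71B6, and that 0 does not bear on its call. Leaving out 1 array gave 0 to 2 calls. Without the second KNO3 array the call was CYP71B24 in place of CYP71B6. The whole table moved too, from 518 called probe sets at 3 min to 17 in the time point alone and 1578 without the first KCl array. At 6 min the count rose from 0 to 1, CYP71B29 lower with KNO3, with the filter, the offset, quantile normalization and the sequential model. For KCl against time 0 it rose from 0 to 1 in the 18 other arrays alone, CYP71B6 higher. For the other comparisons the count was 0 in every setting run, although the sequential model could count no P450 gene but CYP71B29 there.

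Single gene values were followed only where the unadjusted p from limma was under 0.05 in the reported fit, which gave 20 values. In 233 settings, 218 stayed on their side of the threshold, 9 passed it, 6 lost it and none changed sign. That choice of values favours a kept sign. All but CYP71B6 at 3 min were uncalled at the start, so most of those that stayed were uncalled in both fits. The adjusted p of CYP71B6 at 3 min ranged from 0.011 to 0.423. With the replicate number as a block the count at 3 min was 1 and all others were 0. Over all probe sets the numbers showed no pairing of the samples. Same-numbered KNO3 and KCl arrays had correlations of -0.05 to 0.03 between their deviations, and 13 of 24 arrays lay nearest to their own number. Pairing in the brighter probe sets alone was not tested. Taking the next brightest probe set gave no value, since each gene has 1. Signal limits the 14 dim genes, whose 95% intervals at a single time had a median half-width of 1.80 on the log2 scale, against 0.45 for the 8 brighter genes.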
